A study of Mus musculus with 6 samples.

Results

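Claudins were examined through 10 genes of the family, Cldn2, Cldn3, Cldn4, Cldn6, Cldn7, Cldn8, Cldn10, Cldn11, Cldn16 and Cldn19, which were chosen by name from the 13203 genes of a mouse kidney expression table. All 10 were found in the table. The kidneys were taken at embryonic stage E17.5, and total RNA depleted of ribosomal RNA was sequenced from 3 control and 3 mutant kidneys. Controls were labelled Brg1 flx/flx and mutants Six2Cre Brg1flx/flx, so the floxed Brg1 alleles were common to both groups and only the mutants carried the Six2-driven Cre recombinase. Brg1, encoded by Smarca4, is a motor subunit of the SWI/SNF chromatin remodelling complex. Six2 is active in the nephron progenitors of the cap mesenchyme, which give rise to the podocytes and to the tubule from its proximal to its distal segments. The ureteric bud, which forms the collecting ducts, and the stroma come from other lineages. Effects of carrying Six2Cre and effects of deleting Brg1 cannot be told apart here. Nothing in the labels says whether the kidneys of a group came from separate litters, and the p-values measure the spread between these kidneys.

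Claudins are small membrane proteins with 4 transmembrane passes that form the strands of tight junctions and decide which ions and how much water pass between epithelial cells. Each nephron segment makes its own mixture, so that proximal tubules leak sodium and water, the thick ascending limb lets calcium and magnesium through, and collecting ducts are tight. Some claudins act outside the tubule, in endothelium, myelin or connective tissue.

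Values are normalised coverage in kb, the number of sequenced bases over a gene after the libraries were scaled to a common total, given as mean ± SD of 3 kidneys. The libraries are named con1 to con3 and mut1 to mut3. Before scaling the control libraries held 726 to 1126 Mb and the mutant libraries 934 to 1209 Mb over the genes of the table. Smarca4 itself went from 408 ± 33.1 to 306 ± 33.5 kb in the whole organ (limma adjusted p = 0.00481). Coverage of snoRNA genes made up 1.68 to 2.31% of the control libraries and 0.299 to 0.630% of the mutant libraries, and that of the 3 listed globin genes 0.448 to 0.468% and 0.903 to 0.964%. Their part in the results was not tested. All 20 proximal tubule, all 10 podocyte and 14 of 15 thick ascending limb markers were in the table. So were all 10 urothelial and 5 of 7 skeletal muscle markers, and presence in the table is therefore no test of the tissue label.

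The claudins of the proximal tubule and thick ascending limb fell in the mutant kidneys, those of the distal nephron and collecting duct rose, and the stromal Cldn11 rose most of all 10. Cldn2, Cldn10, Cldn16 and Cldn19 were 2.30- to 3.52-fold lower, whereas Cldn3, Cldn4, Cldn7 and Cldn8 were 1.28- to 2.87-fold higher and Cldn11 was 4.97-fold higher. Cldn6, a claudin of immature epithelia, did not pass the test. At a threshold of 0.05 on the limma adjusted p, 9 of the 10 passed, 5 upward and 4 downward, where 46.1% of all 13203 genes passed, 21.5% upward and 24.6% downward. The 3 mutant values lay entirely above or below the 3 control values for 9 of the 10 claudins, and for 56.4% of all genes (26.5% above and 29.8% below). The median log2 fold change of the 10 was 0.21, beside -0.03 for all genes, because the directions were mixed. In size, 7 of the 10 changed at least 2-fold, beside 12.0% of all genes. The 10 were chosen with earlier results of these data known, so their shares beside those of all genes are a description and no test. For each of the 9 claudins past the threshold the exact two-sided permutation test returned 0.1, below which it cannot go with 3 kidneys in each group.

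**Figure D1:**
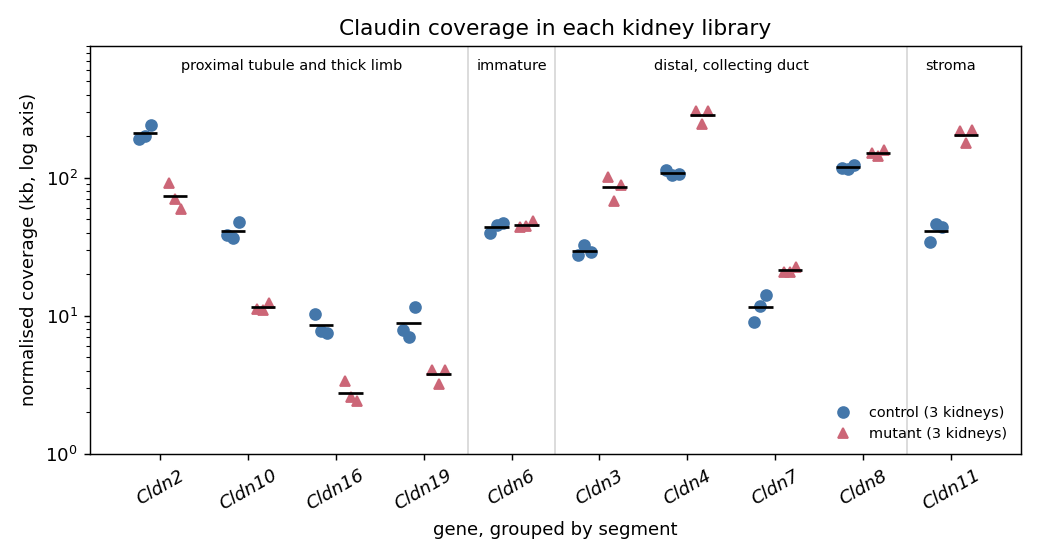
Normalised coverage (kb, log axis) of the 10 claudins in each of the 3 control (circles) and 3 mutant (triangles) kidneys, grouped by segment, with short lines at the group means. The mutant points lie below the control points for Cldn2, Cldn10, Cldn16 and Cldn19, overlap them for Cldn6, and lie above them for Cldn3, Cldn4, Cldn7, Cldn8 and Cldn11.

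Cldn2 forms the pore by which sodium and water cross the proximal tubule between cells, and lies on chromosome X, 139800828 to 139811386, plus strand, in mm10. Its coverage was 190.0, 199 and 240.4 kb in con1, con2 and con3 and 92.2, 69.6 and 59.4 kb in mut1, mut2 and mut3. Every control value was more than 2 times every mutant value. The mean fell from 210 ± 26.9 to 73.7 ± 16.8 kb, a log2 fold change of -1.53 (SE 0.15, limma adjusted p = 1.24e-05). All 20 measured markers of the proximal tubule fell as well, and their summed coverage went from 4303 to 5454 kb in control to 1115 to 1394 kb in mutant. In bulk tissue, fewer cells of a segment and less RNA per cell cannot be told apart.

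Relative to the markers of its own segment, Cldn2 stood higher in every mutant than in every control kidney. In each library the median log2 coverage of the 20 markers was subtracted from that of Cldn2, and this difference was 1.01 ± 0.0995 in control and 1.42 ± 0.278 in mutant. The difference between the groups was 0.42 on the log2 scale (SE 0.17, exact permutation p = 0.1, adjusted p = 0.133 over the 12 claudin and segment pairs). The nearest values of the groups were 1.075 in con1 and 1.104 in mut3. No such pair can pass the 0.05 threshold with 3 kidneys a group. In 9 of the 12 pairs, several of which share a marker list, the groups did not overlap, beside 56.4% of all genes taken singly. The markers with the largest falls were Miox, an enzyme of inositol breakdown (log2 fold change -4.49), the dicarboxylate transporter gene Slc13a3 (-2.98) and the lactate transporter gene Slc5a12 (-2.81). Their mutant means were under 3.40 kb, the lowest value that a higher group mean takes in the table, so these 3 were listed through their control level alone and had to be lower in mutant.

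Cldn10 is made in 2 main forms from separate first exons, an anion-selective form in the proximal tubule and a sodium-selective form in the thick ascending limb. The gene lies on chromosome 14, 118787908 to 118875489, plus strand, and the table gives a single value for all its forms. Coverage was 38.7, 36.6 and 47.6 kb in con1 to con3 and 11.2, 11.1 and 12.4 kb in mut1 to mut3. The mutant kidneys were close to each other and all far below the controls. The mean fell from 41.0 ± 5.85 to 11.6 ± 0.724 kb, with a log2 fold change of -1.82 (SE 0.14, limma adjusted p = 2.55e-06). This was the deepest fall among the 10 claudins by fold, although the 95% intervals of Cldn10 (-2.12 to -1.52) and Cldn2 (-1.85 to -1.20) overlapped. The log2 ratio of Cldn2 to Cldn10 was 2.36 ± 0.0759 in control and 2.65 ± 0.389 in mutant, with overlapping groups (exact permutation p = 0.4).

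Both starts of Cldn10 have an entry among the RefSeq promoters (GRCm38.p6, the assembly of mm10), and the 250 bases before each are shown because the forms differ in the segment that makes them. Capitals mark the letters GGGCGG, a GC box, on either strand.
Cldn10 upstream start, chr14:118787621-118787870, plus strand: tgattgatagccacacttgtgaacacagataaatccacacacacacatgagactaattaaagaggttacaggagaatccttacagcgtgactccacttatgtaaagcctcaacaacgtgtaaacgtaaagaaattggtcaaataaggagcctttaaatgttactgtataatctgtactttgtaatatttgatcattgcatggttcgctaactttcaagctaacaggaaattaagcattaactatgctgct
Cldn10 downstream start, chr14:118854700-118854949, plus strand: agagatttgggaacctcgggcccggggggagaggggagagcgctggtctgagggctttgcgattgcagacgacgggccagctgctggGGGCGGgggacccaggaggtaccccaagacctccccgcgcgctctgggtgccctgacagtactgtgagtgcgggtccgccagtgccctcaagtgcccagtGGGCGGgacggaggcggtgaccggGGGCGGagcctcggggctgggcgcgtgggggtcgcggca
The upstream start is poor in G and C at 36%, against a median of 52.4% over 32817 promoters, and holds no copy of GGGCGG. The downstream start has 72.4% G and C and 3 copies of GGGCGG. Among all promoters of the same length 32.7% hold GGGCGG. A match in letters describes the sequence and shows no binding.

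In the thick ascending limb Cldn16 and Cldn19 form a joint pore through which calcium and magnesium are recovered, and loss of either in humans causes wasting of both ions in the urine. Cldn16 (chromosome 16, 26463135 to 26482765, plus strand) had 10.3, 7.81 and 7.46 kb in con1 to con3 and 3.36, 2.56 and 2.42 kb in mut1 to mut3. The highest mutant value was less than 0.5 of the lowest control value. Its mean fell from 8.51 ± 1.53 to 2.78 ± 0.508 kb (log2 fold change -1.62, SE 0.26, limma adjusted p = 0.000434). Cldn19 (chromosome 4, 119255414 to 119262438, plus strand) had 7.94, 6.97 and 11.6 kb in control and 4.02, 3.22 and 4.05 kb in mutant. The groups were separate here too, with con3 the highest. Its mean fell from 8.82 ± 2.43 to 3.76 ± 0.470 kb (-1.20, SE 0.25, adjusted p = 0.00259). Both are thinly covered genes, and 90 bases of the exons of Cldn19 overlap the antisense gene Gm12927, from which its reads cannot be told apart without knowledge of strand. In mutant libraries Cldn16 rested on 2.78 to 3.21 kb of unscaled bases and Cldn19 on 3.85 to 4.65 kb. As its mutant mean was under 3.40 kb, Cldn16 was listed through its control level alone and had to be lower in mutant. It is included in the counts of claudins that fell.

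A difference between the partners of this pore was not detectable. The log2 ratio of Cldn16 to Cldn19 was -0.03 ± 0.530 in control and -0.44 ± 0.262 in mutant, a difference of -0.41 (SE 0.34) with overlapping groups (exact permutation p = 0.3). Of 14 measured markers of the thick ascending limb 12 fell, none rose and 2 did not pass, with a median log2 fold change of -0.95. Among those that fell were Egf, the epidermal growth factor gene (-2.31, listed through its control level alone), and Bsnd, which encodes barttin (-1.89). Relative to the median of these markers, Cldn10 was at 0.76 ± 0.180 in control and -0.03 ± 0.132 in mutant, a difference of -0.79 without overlap (exact permutation p = 0.1). For Cldn16 the difference relative to the same markers was -0.59, also without overlap (exact p = 0.1). It was -0.35 without con1, still without overlap. With a pseudocount of 1000 it was -0.36 and the groups overlapped (exact p = 0.2). For Cldn19 the groups overlapped (difference -0.18, SE 0.20, exact p = 0.5). Against the proximal tubule markers Cldn10 differed by 0.13 (SE 0.14), with overlapping groups (exact p = 0.5).

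**Figure D2:**
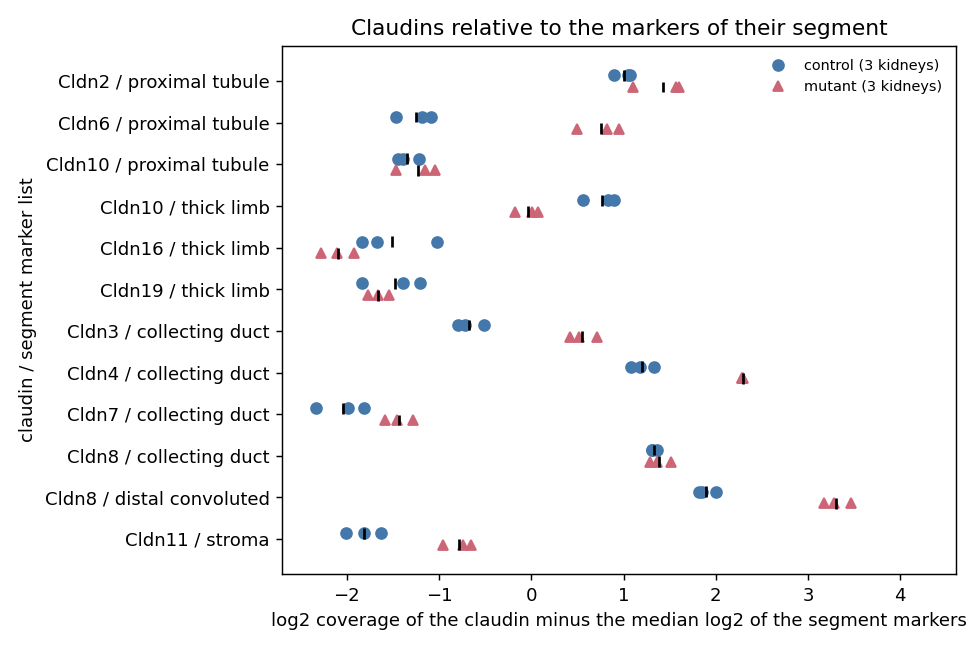
For 12 pairs of a claudin and the markers of a segment, log2 coverage of the claudin minus the median log2 coverage of the markers in each control (circles) and mutant (triangles) kidney, with short lines at group means. Mutant points lie to the right of control points for Cldn2 and Cldn6 relative to the proximal tubule and Cldn11 relative to the stroma. The same holds for Cldn3, Cldn4 and Cldn7 relative to the collecting duct and Cldn8 relative to the distal convoluted tubule. Mutant points lie to the left for Cldn10 and Cldn16 relative to the thick limb, and the groups overlap in the other pairs.

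Cldn6, which is strong in embryonic epithelia and fades from the tubule after birth, had nearly the same coverage in both groups. It lies on chromosome 17, 23679249 to 23682446, plus strand. Coverage was 39.7, 45.1 and 46.7 kb in con1 to con3 and 44.0, 44.4 and 48.9 kb in mut1 to mut3. The ranges overlapped, with con1 below every mutant value and mut3 above every control value. The log2 fold change was 0.06 with a 95% interval from -0.17 to 0.30 (limma adjusted p = 0.648), so that changes within that interval were not detectable. It turned to -0.01 without con1. Against the falling proximal tubule markers Cldn6 moved from -1.25 ± 0.199 to 0.76 ± 0.235, a difference of 2.01 on the log2 scale (exact permutation p = 0.1, adjusted p = 0.133). The log2 ratio of Cldn6 to Cldn2 went from -2.25 ± 0.112 to -0.66 ± 0.393 with no overlap (exact p = 0.1, adjusted p = 0.225 over 9 claudin pairs). Cldn9, another claudin of the neonatal kidney whose gene ends 137 bases from that of Cldn6 on the opposite strand, fell from 29.6 ± 3.29 to 21.6 ± 1.94 kb (log2 fold change -0.45, limma adjusted p = 0.0149). This did not hold without con3 (adjusted p = 0.0684) or mut3 (0.0574), over a range of 0.0103 to 0.0684.

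The 4 claudins of the distal nephron and collecting duct were each higher in every mutant kidney than in every control kidney. Cldn3, a sealing claudin found from the thick limb to the collecting duct, lies on chromosome 5, 134986214 to 134987472, plus strand. Its coverage was 27.5, 32.5 and 28.8 kb in control and 102, 67.4 and 88.4 kb in mutant, where mut2 was lowest and still more than 2 times every control value. The mean rose from 29.6 ± 2.57 to 85.8 ± 17.2 kb (log2 fold change 1.52, SE 0.14, limma adjusted p = 1.06e-05). The antisense gene Wbscr25 overlaps 40 of its bases. Cldn4, which with Cldn8 sets the passage of chloride in the collecting duct, is its neighbour at a distance of 39279 bases, at 134945119 to 134946934 on the minus strand. Cldn4 had 114, 105 and 106 kb in control and 302, 247 and 305 kb in mutant. Controls were tightly grouped and mut2 was again the lowest of the mutants. The mean rose from 108 ± 5.09 to 285 ± 32.9 kb (1.39, SE 0.10, adjusted p = 1.54e-06). The log2 ratio of Cldn3 to Cldn4 was -1.87 ± 0.180 in control and -1.74 ± 0.153 in mutant, a difference of 0.13 (SE 0.14) with overlapping groups (exact permutation p = 0.4).

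Cldn7, which lies along the lateral membrane as well as in the junction, had 9.01, 11.7 and 14.3 kb in control and 20.7, 20.8 and 22.6 kb in mutant (chromosome 11, 69964779 to 69967885, plus strand). The controls were spread and the mutants were close together, with no overlap. Its mean rose from 11.6 ± 2.62 to 21.4 ± 1.11 kb (log2 fold change 0.90, SE 0.17, limma adjusted p = 0.00153). Cldn8 (chromosome 16, 88560828 to 88563183, minus strand), which brings Cldn4 to the junction of collecting duct cells, had 117, 115 and 124 kb in control and 151, 144 and 160 kb in mutant. Its groups were separate although close. Its mean rose from 119 ± 4.67 to 152 ± 7.84 kb (0.35, SE 0.08, adjusted p = 0.00444), the smallest change past the threshold among the 10. The log2 ratio of Cldn4 to Cldn8 went from -0.13 ± 0.0961 to 0.90 ± 0.117, a difference of 1.04 without overlap (exact permutation p = 0.1, adjusted p = 0.225). The log2 ratio of Cldn7 to Cldn8 was higher by 0.54 without overlap (exact p = 0.1), while that of Cldn4 to Cldn7 was higher by 0.49 (SE 0.24) with overlapping groups (exact p = 0.2).

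Markers of the collecting duct and ureteric epithelium gave a mixed picture beside these claudins. Of 19 measured 9 rose, 2 fell and 8 did not pass, with a median log2 fold change of 0.32. The keratin gene Krt19 rose (1.75), whereas the vasopressin-regulated water channel gene Aqp2 fell (-1.95). Relative to the median of this list Cldn3 was higher by 1.22 on the log2 scale, Cldn4 by 1.10 and Cldn7 by 0.60, each without overlap between the groups (exact permutation p = 0.1 for each, adjusted p = 0.133). For Cldn8 the groups overlapped, with a difference of 0.06 (SE 0.07, exact p = 0.7). Against the 8 measured markers of the distal convoluted tubule, where 5 fell and 1 rose, Cldn8 was higher by 1.42 without overlap (exact p = 0.1). The median log2 coverage of these 8 markers changed by -1.06. Their summed coverage did not fall, at 496 to 559 kb in control and 497 to 556 kb in mutant. Trpv5 and Trpm6, with mutant means under 3.40 kb, were listed through their control level alone and had to be lower in mutant. Slc12a3, the thiazide-sensitive cotransporter, was among those that fell (-1.99). Of 7 markers of intercalated cells, the acid-base cells of the duct, 6 fell and 1 rose, beside 24.6% and 21.5% of all genes. Slc4a1, which rose, is also a marker of erythroid cells. Its call was lost without con2, con3, mut2 or mut3 (limma adjusted p = 0.0548 to 0.0708). Slc4a9 and Dmrt2, with mutant means under 3.40 kb, were listed through their control level alone and had to be lower in mutant.

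The urothelium of the renal pelvis also makes Cldn3, Cldn4 and Cldn7, and its markers were measured in the same libraries. Of 10 urothelial markers 6 rose, 4 did not pass and none fell, with a median log2 fold change of 1.24. Their summed coverage was 52.8 to 103 kb in control and 174 to 244 kb in mutant, and none was at 0. Foxa1, a transcription factor of this epithelium, rose most (2.62), followed by the basal keratin gene Krt5 (2.20, not passing without mut3 at adjusted p = 0.107) and the signal gene Shh (1.54). All 3 had control means under 3.40 kb, were listed through their mutant level alone, and so had to be higher there. Their part in the rise of these claudins was not tested.

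The promoter of Cldn4 and the upstream start of Cldn7 are shown because they hold the letters ACCNGTT on either strand. This is the core of the site of Grainyhead factors, of which Grhl2 is known to act on Cldn4 in duct epithelium. Capitals mark ACCNGTT or GGGCGG on either strand.
Cldn4, chr5:134946935-134947184, minus strand: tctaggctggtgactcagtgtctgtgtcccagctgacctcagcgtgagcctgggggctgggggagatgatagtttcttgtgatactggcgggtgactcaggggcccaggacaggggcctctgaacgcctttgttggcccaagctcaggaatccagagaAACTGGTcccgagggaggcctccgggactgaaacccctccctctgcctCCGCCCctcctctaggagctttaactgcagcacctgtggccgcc
Cldn7 upstream start, chr11:69964529-69964778, plus strand: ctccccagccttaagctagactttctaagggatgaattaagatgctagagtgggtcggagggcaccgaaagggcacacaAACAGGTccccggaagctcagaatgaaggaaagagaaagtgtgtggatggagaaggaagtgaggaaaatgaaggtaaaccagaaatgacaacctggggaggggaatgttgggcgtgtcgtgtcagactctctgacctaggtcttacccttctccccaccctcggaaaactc
Each holds 1 copy of ACCNGTT, which is found in 6.97% of all promoters of this length. The downstream start of Cldn7, chr11:69965171-69965420, is not shown and does not hold ACCNGTT. None of the other 7 claudins with a promoter entry, of 9 in all, holds it within 250 bases, which says only that the letters are not in that window. Grhl2 coverage did not pass the test, at 31.8 ± 3.36 and 36.2 ± 1.28 kb (log2 fold change 0.19, limma adjusted p = 0.191).

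Cldn11, best known from the myelin of oligodendrocytes and the barrier of Sertoli cells in the testis, rose more than any other of the 10. It lies on chromosome 3, 31149920 to 31164324, plus strand. Coverage was 34.4, 46.0 and 43.8 kb in con1 to con3 and 217, 177 and 220.2 kb in mut1 to mut3. Every mutant value was more than 3 times every control value. The mean went from 41.4 ± 6.19 to 205 ± 24.1 kb, a log2 fold change of 2.31 (SE 0.13, limma adjusted p = 4.89e-07), which placed it at the 99.2 percentile of all genes by signed change. Stromal markers rose in the same libraries, 16 of 17 of them, with a median of 1.22 and a summed coverage of 5701 to 5926 kb in control and 10837 to 13487 kb in mutant. Crabp1, a retinoic acid binding protein (2.17), the atypical cadherin gene Fat4 (2.16) and the proteoglycan gene Lum (1.86) rose most. Relative to the median of the stromal markers Cldn11 was higher by 1.04, from -1.82 ± 0.188 to -0.78 ± 0.157, without overlap (exact permutation p = 0.1, adjusted p = 0.133).

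Markers of the other tissues known for Cldn11 were scarce. Of 9 genes of glia and meninges 4 were in the table, of which 2 rose, 1 fell and 1 did not pass. The defining glial genes Mog, Sox10, Gfap, Olig2 and S100b were not among them. The summed coverage of the 4 was 90.7 to 122 kb in control and 85.9 to 99.4 kb in mutant, most of it from Foxc1, a factor of the meninges and of other mesenchyme, which fell (log2 fold change -0.39, limma adjusted p = 0.0224). This call was lost without con1, con2, mut1 or mut3 and without the variance trend, at adjusted p = 0.0527 to 0.106. Mbp, a myelin protein gene, rose from 4.67 ± 0.652 to 8.62 ± 0.864 kb (limma adjusted p = 0.00606), and Ptgds from 1.26 ± 0.985 to 3.64 ± 1.19 kb (adjusted p = 0.0400). Ptgds was listed through its mutant level alone, and its call was lost without con1, mut1 or mut3, without the variance trend and with array weights, at adjusted p = 0.0572 to 0.119. Of 8 genes of gonad and adrenal gland only Inha was in the table, rising from 3.86 ± 1.05 to 7.60 ± 1.95 kb (adjusted p = 0.0146), but not without con1 (0.0564) or mut1 (0.0622). Smooth muscle and mural cell genes rose in 7 of 9 cases, with a summed coverage of 493 to 598 kb in control and 927 to 1392 kb in mutant. The part of these cells in the rise of Cldn11 was not tested.

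The promoter of Cldn11 is shown as that of the claudin with the largest change among the 10, without capitals because neither ACCNGTT nor GGGCGG has a match in it.
Cldn11, chr3:31149670-31149919, plus strand: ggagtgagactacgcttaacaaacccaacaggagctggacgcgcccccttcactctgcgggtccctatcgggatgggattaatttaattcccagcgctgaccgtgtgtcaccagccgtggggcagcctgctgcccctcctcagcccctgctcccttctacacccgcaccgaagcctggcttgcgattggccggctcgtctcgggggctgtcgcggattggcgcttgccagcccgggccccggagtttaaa
It has 63.6% G and C.

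**Figure D3:**
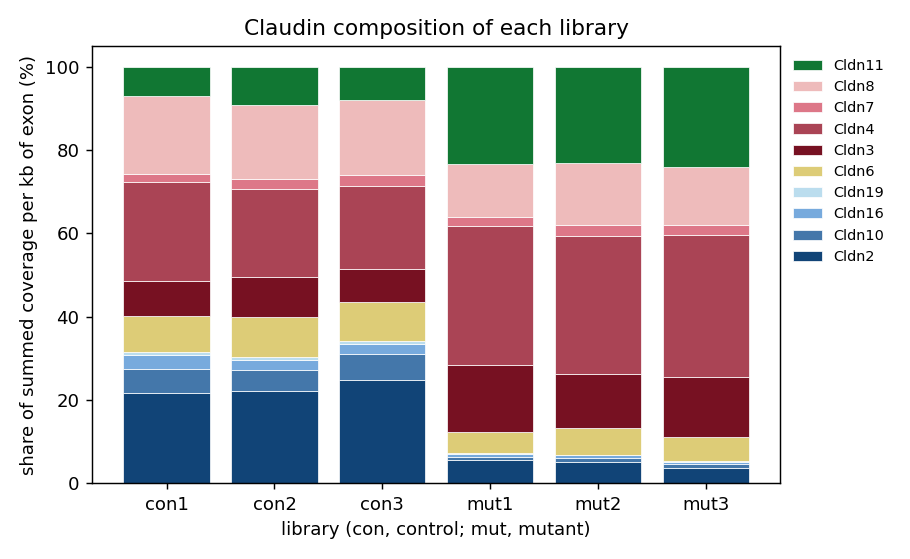
Share of each claudin in the summed coverage per kb of exon of the 10 genes, in percent, for each of the 3 control (con) and 3 mutant (mut) libraries. The blue blocks (Cldn2, Cldn10, Cldn16, Cldn19) shrink from a mean of 32.0% to 6.43%, and the green block (Cldn11) grows from 8.03% to 23.5%.

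To compare levels between claudins, coverage was divided by the exon length of each gene and given as kb per kb of exon. In control kidneys Cldn2 (63.1 ± 8.09) and Cldn4 (59.6 ± 2.80) stood highest and overlapped, followed by Cldn8 (50.3 ± 1.98). Cldn6 (25.5 ± 2.12), Cldn3 (23.5 ± 2.04) and Cldn11 (22.1 ± 3.31) came next, each overlapping its neighbour, and Cldn11 also overlapped Cldn10 (15.8 ± 2.26). The lowest were Cldn16 (7.26 ± 1.30) and Cldn7 (5.98 ± 1.35), which overlapped, and Cldn19 (2.07 ± 0.569). In mutant kidneys the order was Cldn4 (157 ± 18.1), Cldn11 (110 ± 12.9), Cldn3 (68.2 ± 13.7) and Cldn8 (64.4 ± 3.33), of which the last pair overlapped. Cldn6 (26.6 ± 1.57) and Cldn2 (22.2 ± 5.04) overlapped too, so that Cldn2 went from first to sixth place. Cldn7 (10.97 ± 0.570), Cldn10 (4.47 ± 0.279), Cldn16 (2.37 ± 0.433) and Cldn19 (0.882 ± 0.110) followed without overlap.

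The summed per-length coverage of the 10 claudins was 263, 271 and 291 in con1 to con3 and 499.6, 410.0 and 489 in mut1 to mut3. The make-up of that sum shifted with it. Cldn2 made up 22.9 ± 1.71% of the sum in control and 4.77 ± 0.993% in mutant, while Cldn4 went from 21.7 ± 1.98% to 33.6 ± 0.626% and Cldn11 from 8.03 ± 1.04% to 23.5 ± 0.511%. The 4 claudins of the proximal tubule and thick limb together held 32.0 ± 2.03% in control and 6.43 ± 1.04% in mutant. Those of the distal nephron and collecting duct held 50.7 ± 2.22% and 64.3 ± 0.582%. Cldn8 rose in coverage, and its share was 18.3 ± 0.503% in control and 13.9 ± 1.05% in mutant.

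Of 20 other claudin names looked up, 8 were in the table, of which 1 rose, 3 fell and 4 did not pass. Cldn23 rose from 1.59 ± 0.702 to 13.8 ± 1.79 kb (log2 fold change 3.22, SE 0.36, limma adjusted p = 3.24e-05), a larger fold than any of the 10. It was listed through its mutant level alone and therefore had to be higher there. Cldn12, a claudin without the usual PDZ-binding end, fell from 75.4 ± 5.28 to 47.2 ± 4.46 kb (-0.68, adjusted p = 0.000336). Cldn5, the claudin of endothelium, fell slightly from 230 ± 12.2 to 197 ± 4.68 kb (-0.22, adjusted p = 0.0350). The call of Cldn5 was lost under median-ratio scaling (0.0508), without the variance trend (0.0820) and without con1 (0.134), con3 (0.0995) or mut3 (0.0901), over a range of 0.0320 to 0.134. Of 9 endothelial markers 4 rose, 2 fell and 3 did not pass. Calls in both directions among these markers were lost in some alternatives (highest limma adjusted p = 0.115). A marker that did not pass gained a call in others (lowest 0.00852).

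Cldn1, which is made by the parietal cells of Bowman's capsule, was at 89.3 ± 8.07 and 93.9 ± 8.35 kb (log2 fold change 0.07, 95% interval -0.15 to 0.30, limma adjusted p = 0.593). Cldn15, a sodium pore of the intestine, was at 7.47 ± 1.30 and 4.97 ± 0.416 kb with separate groups (-0.58, adjusted p = 0.0528), and passed with a pseudocount of 1000 (0.0485), without the trend (0.0187) and with array weights (0.0497). Cldn18, known from stomach and lung, varied so much in control (4.71, 0.00132 and 10.9 kb in con1 to con3) that no direction can be given: its log2 fold change was -1.05 with all libraries, 1.18 without con3 and -4.92 without con2, where it passed (adjusted p = 0.00224). A row named Cldn25 was at 57.2 ± 3.43 and 57.2 ± 4.90 kb, but that name has been used for more than 1 gene, Cldnd1 among them, and its identity is uncertain. Cldn14 of the thick limb and Cldn13 were not analysed here.

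**Figure D4:**
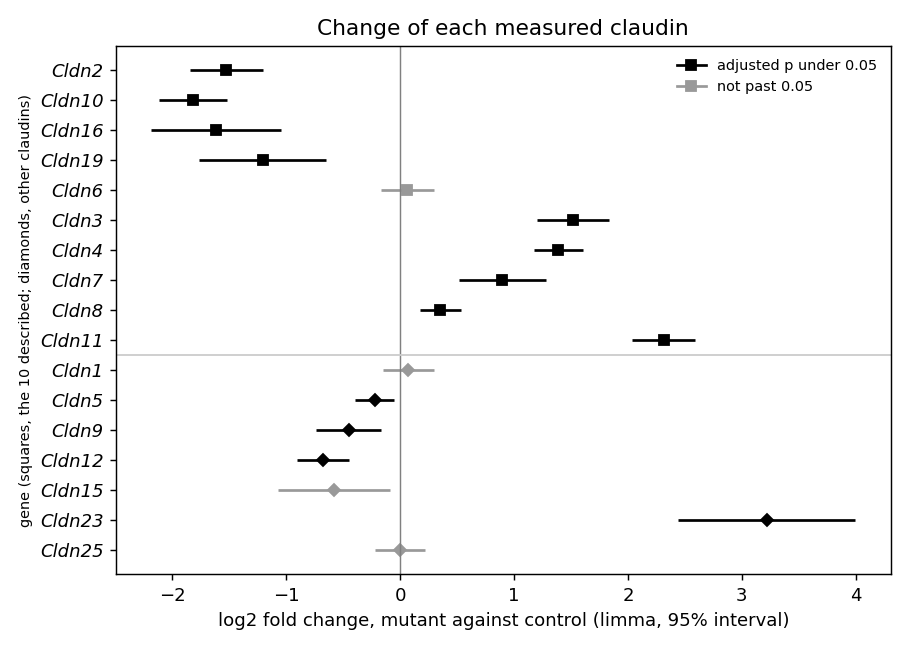
Log2 fold change of mutant against control with its 95% interval from limma for the 10 claudins (squares) and 7 other claudins (diamonds), in black where the adjusted p was under 0.05 and in grey otherwise. Cldn18 is left out because its interval runs from -6.90 to 4.79; Cldn2, Cldn10, Cldn16 and Cldn19 lie left of 0 and Cldn3, Cldn4, Cldn7, Cldn8, Cldn11 and Cldn23 right of it.

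Of 27 measured partners of claudins in the tight junction 5 rose, 7 fell and 15 did not pass, a share of calls near the 46.1% over all genes, with a median log2 fold change of 0.04. The scaffold gene Tjp1, which encodes ZO-1, rose from 334 ± 16.1 to 428 ± 27.4 kb (0.36, limma adjusted p = 0.00360). Magi3 (0.55) and St14, which encodes the protease matriptase (0.42), rose as well. Ildr2, an angulin of tricellular junctions, fell most, from 49.2 ± 4.45 to 15.4 ± 4.26 kb (-1.71, SE 0.19, adjusted p = 3.32e-05). Its relatives Lsr (-0.05, adjusted p = 0.706) and Ildr1 (0.00, adjusted p = 0.998) did not pass.

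The 27 partners include polarity genes that place the junction, which were no separate list. Inadl (log2 fold change -0.41), Pard6b (-0.49), Prkcz (-0.60), Mpp5 (-0.34) and Crb3 (-0.65) fell. Pard3 (0.16, limma adjusted p = 0.133), Prkci (-0.08, adjusted p = 0.441) and Mpdz (0.04, adjusted p = 0.790) did not pass. These falls are among the 7 of the 27 partners, beside 24.6% of all genes that fell, and no result about polarity genes is drawn from them. Prss8, a membrane-anchored protease, fell too (-0.42). Mpp5 lost its call without con1 (adjusted p = 0.0805) or con2 (0.0570) and without the trend (0.0513), and Crb3 without con1 (0.0522) or con3 (0.0618). Jam2 rose (0.69, limma adjusted p = 0.0385) but not without con2, con3, mut2 or mut3 or without the trend (0.0641 to 0.168). Occludin (Ocln) was at 70.7 ± 7.09 and 85.8 ± 11.5 kb (0.27, adjusted p = 0.0733), with 4 alternatives in which it passed (lowest 0.0157). Epcam, which stabilises Cldn7, was at 165 ± 14.1 and 175 ± 8.01 kb (0.08, adjusted p = 0.472).

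Of 14 measured genes known to control claudins 8 fell, 2 rose and 4 did not pass, with a median log2 fold change of -0.37. Among all genes 24.6% fell and 21.5% rose, with a median of -0.03. The counts are not separate from those of the segments. Hnf4a, Casr and Gata3 also stand among the markers of the proximal tubule, thick ascending limb and collecting duct. Hnf4a, a transcription factor of the proximal tubule, fell from 377 ± 31.8 to 111 ± 27.5 kb (-1.80, SE 0.15, limma adjusted p = 5.91e-06), and the vitamin D receptor gene Vdr fell as well (-1.41). Casr, the calcium sensor that acts on thick limb claudins, fell from 20.7 ± 4.35 to 10.6 ± 1.82 kb (-0.96, adjusted p = 0.00154), and Pth1r, the parathyroid hormone receptor, from 148 ± 15.3 to 82.6 ± 9.54 kb (-0.84). Elf3, an epithelial ETS factor, rose from 26.2 ± 4.77 to 88.8 ± 8.65 kb (1.77, SE 0.14, adjusted p = 3.24e-06), and Gata3, a factor of the ureteric lineage, from 45.2 ± 3.98 to 60.2 ± 8.51 kb (0.41, adjusted p = 0.0181), the latter not without con3 (0.0684), mut1 (0.0521) or mut3 (0.0743). Klhl3 (-0.41) and Cul3 (-0.34), parts of a ubiquitin ligase for WNK kinases, lost their calls in 6 and 7 alternatives. Wnk4 (-0.23, adjusted p = 0.142) did not pass.

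**Figure D5:**
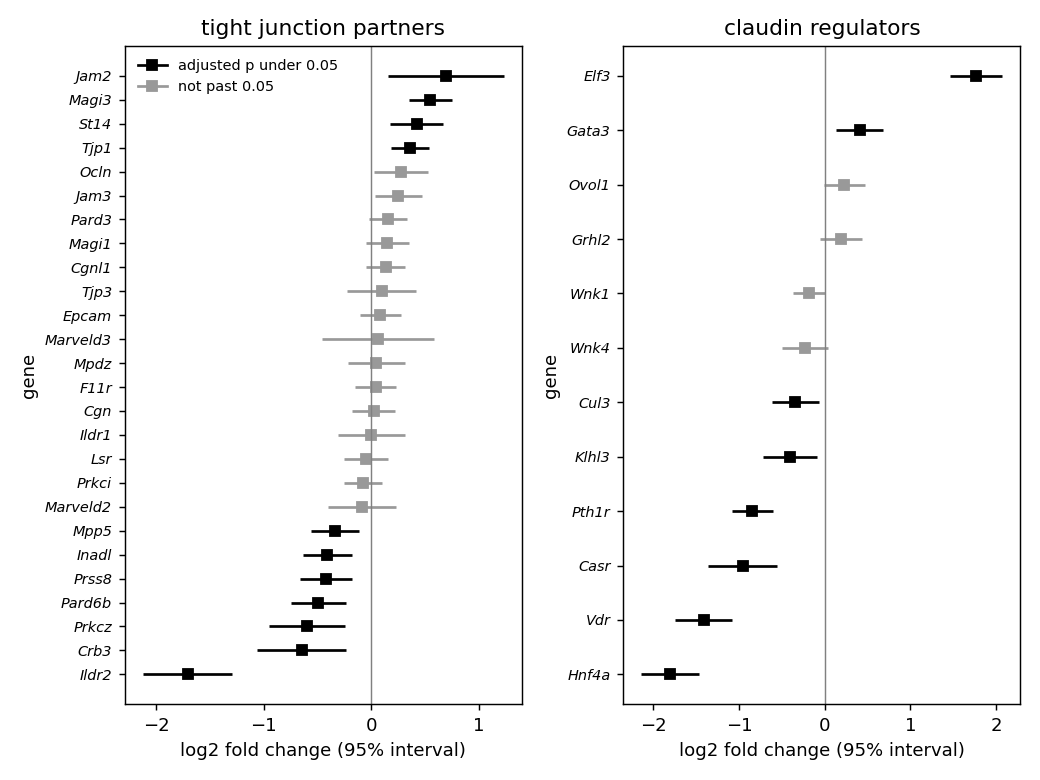
Log2 fold change of mutant against control with 95% intervals from limma for tight junction partners (left) and genes known to regulate claudins (right), in black where the adjusted p was under 0.05. Ildr2 lies farthest from 0 among the partners, at -1.71, while Hnf4a and Vdr lie farthest left and Elf3 farthest right among the regulators.

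For 4 claudins the genes with the most similar profile were sought, as the smallest root mean square difference over the 6 libraries of log2 coverage centred on the control mean. Since the profiles are dominated by the difference between the groups, the measure mainly finds genes with the same change. Closest to Cldn2 were Car4, a carbonic anhydrase (0.0439), Ggt1, a brush border peptidase (0.0622), and Vil1, which encodes villin (0.0937). Among the closest to Cldn16 were 6530402F18Rik (0.155) and Amn, the membrane anchor of cubilin (0.158). Closest to Cldn7 were Rasl12 (0.0810), Slc22a18 (0.0846) and Klf11 (0.0945), and closest to Cldn11 were Myo16 (0.0941), Fbxo32 (0.0964) and Klf5 (0.143). Myo16, with a control mean of 3.12 kb, was listed through its mutant level alone and had to be higher there. 6530402F18Rik, with a mutant mean of 2.57 kb, was listed through its control level alone and had to be lower in mutant. For both, the direction shared with the claudin was therefore fixed by the listing.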

How the data were processed

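RNA of 6 kidneys, 3 in each group, was sequenced from ribosome-depleted libraries, per the labels' protocols. The authors deposited a coverage signal per gene and library. The submitters' processing notes name mm10 and bedtools. Aligner, annotation and strand use: not given in the sources used here. As for units, the deposited coverage signal was read from its values as bases over a gene, scaled to a common total of 976 Mb and not divided by length. Low values were whole multiples of a step in each library, within 0.02 of a step, which gave 726 to 1209 Mb before scaling. Because bases of 1 read are not independent, count models and counting intervals were not applied. Genes under 3.40 kb in both group means are not analysed here.

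Columns could be tied to their group but not to single kidneys of the labels, so nothing was paired. Values were tested as log2(value + 1) with limma 3.58.1 in R 4.3.3 (empirical Bayes, mean-variance trend, two-sided). Benjamini-Hochberg adjustment covered the 13203 genes, and 0.05 was the threshold. A filter for values above 1 in 3 libraries removed 0 genes. Fold changes are on that log2 scale. Ratios of claudins to each other (9 pairs) and to segment markers (12 pairs) were compared by exact two-sided permutation tests over libraries (scipy 1.17.1), adjusted within each set of pairs. The fit was tested on simulated data. Exon lengths and coordinates came from GENCODE M21 (mm10), which matched 12436 symbols; promoters came from RefSeq (GRCm38.p6), with an entry for 9 of the 10 claudins, Cldn8 being named only.

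All 10 claudins were named, with every measured gene of the other claudins, partners and regulators, and the 3 called genes with the largest change of each marker list where they are described. Claudins and lists were chosen with earlier results of these data known. The promoter motifs were chosen after seeing the data. Some genes that these rules name are not reported here, although they stay in the counts. Alternatives were a pseudocount of 1000, median-ratio scaling, quantile normalization, genes above median coverage, no trend, array weights and each library left out.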

Additional observations from a re-analysis of the deposited data

How the results depend on the processing

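The 9 claudins past the threshold kept their direction and their call in all 104 values obtained for them under alternatives, which covered pseudocount, scaling, quantile normalization, variance trend, array weights, a coverage filter and each library left out. With genes above median coverage, 1546 genes rose and 1729 fell, and of the 6 claudins still tested 1 fell (Cldn2) and 4 rose, because the other 4 claudins were not tested. Leaving out libraries gave a log2 fold change from -0.0053 to 0.11 for Cldn6, from -0.0013 to 0.15 for Cldn1, from -0.063 to 0.060 for Cldn25 and from -4.92 to 1.18 for Cldn18, which was also at 0.29 with array weights; the cause was not tested. The position of Cldn8 relative to the collecting duct markers ranged from -0.0030 to 0.11 in the same way. Without division by exon length the share of Cldn2 was 33.7% in control and 8.33% in mutant. No paired analysis was possible because the columns carry no numbers that the labels tie across groups. With 3 kidneys a group, exact tests cannot go below 0.1. Cldn16 and Cldn19 rest on the least coverage.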
